A study of Mus musculus with 2 samples.

Results

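The data are on 40 genes of the macrophage lineage in primary cultures of osteoblasts, which form bone, taken from the skull vault (calvaria) of 7-day-old CD1 mice. The genes were taken from a list of names that was chosen with earlier results of these data known. Every probe set that the platform annotation gives to exactly 1 of these genes was used. A probe set is a group of short probes against 1 transcript. All 40 genes had at least 1 probe set, 73 in all, out of 18193 genes named on the array. The study held 2 Affymetrix arrays, 1 of a culture given 2 µM PP1 for 24 h and 1 of a culture given the vehicle DMSO for the same time. PP1 is an inhibitor of c-Src and related tyrosine kinases. Both cultures had first been kept for 24 h without serum, in medium with albumin, and both came from animals of the same strain and age. Primary cultures are mixtures by nature, and the labels give neither the number of animals pooled nor a purity. Each condition is a single array, so all values describe these 2 arrays and no test between the conditions was possible.

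Macrophages are phagocytes of the blood-forming lineage. They depend on signalling through the receptor for colony-stimulating factor 1 (Csf1r), and the transcription factor PU.1 (Spi1) directs much of their gene expression. They take up particles through Fc receptors, lectins and scavenger receptors, degrade them in lysosomes, and present peptides on class II molecules. Resident macrophages of bone lie on and beside osteoblasts, and they can be carried into calvarial cell preparations. Osteoclasts arise from the same precursors.

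Macrophage transcripts were detected on both arrays, at much the same overall level with PP1 as with DMSO. Signals were compared after the PP1 array had been multiplied by 1.68, which gave both arrays the same mean after trimming 2% at each end. A signal counts as measured above a floor of 31.7, the median of all probe sets on both arrays, and lower signals were set to that floor for ratios. Each gene is represented by its brightest probe set. Of the 40 genes, 37 were above the floor on at least 1 array (92.5%), against 66.6% of all genes. The floor was exceeded by 36 of them with PP1 and by 37 with DMSO, and 26 reached at least 4 times the floor on both arrays (65.0%, against 40.8% of all genes). Because the list was chosen with earlier results of these data known, these shares describe the list and are no test of presence. The median log2 ratio (PP1 minus DMSO) of the 37 measured genes was -0.01, beside 0.01 over all 12111 measured genes. The summed signal of the 40 genes was 28509.7 with PP1 and 26976 with DMSO, and without the bright lysozymes Lyz1 and Lyz2 it was 16055 with PP1 and 16343 with DMSO. Both sums include Lgals3, which mesenchymal cells also make, at 3109.6 with PP1 and 3716 with DMSO. The direction of the smaller sum therefore depends on single bright genes. In such bulk samples, fewer cells of a type and less RNA per cell cannot be told apart.

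The 4 defining markers all lay far above the floor on both arrays. Csf1r had a signal of 1296 with PP1 and 1301 with DMSO. Adgre1 (F4/80) had 548 with PP1 and 416 with DMSO, Cd68 had 589 with PP1 and 354 with DMSO, and Lyz2 had 6297 with PP1 and 4892 with DMSO. Of 7 osteoblast genes, the labelled cell type, 5 were measured (71.4%, against 66.6% of all genes). Col1a1, the main collagen of bone, had a signal of 9931 with PP1 and 7558 with DMSO, and alkaline phosphatase (Alpl) had 242 with PP1 and 188 with DMSO. Bone sialoprotein (Ibsp), a marker of mineralizing osteoblasts, had 37.7 with PP1 and 159 with DMSO. Sp7, from the same list, was dim, with 53.3 with PP1 and 71.6 with DMSO. Dmp1 and Phex were below the floor on both arrays. Runx2, Spp1 and Bglap were not analysed here.

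**Figure D1:**
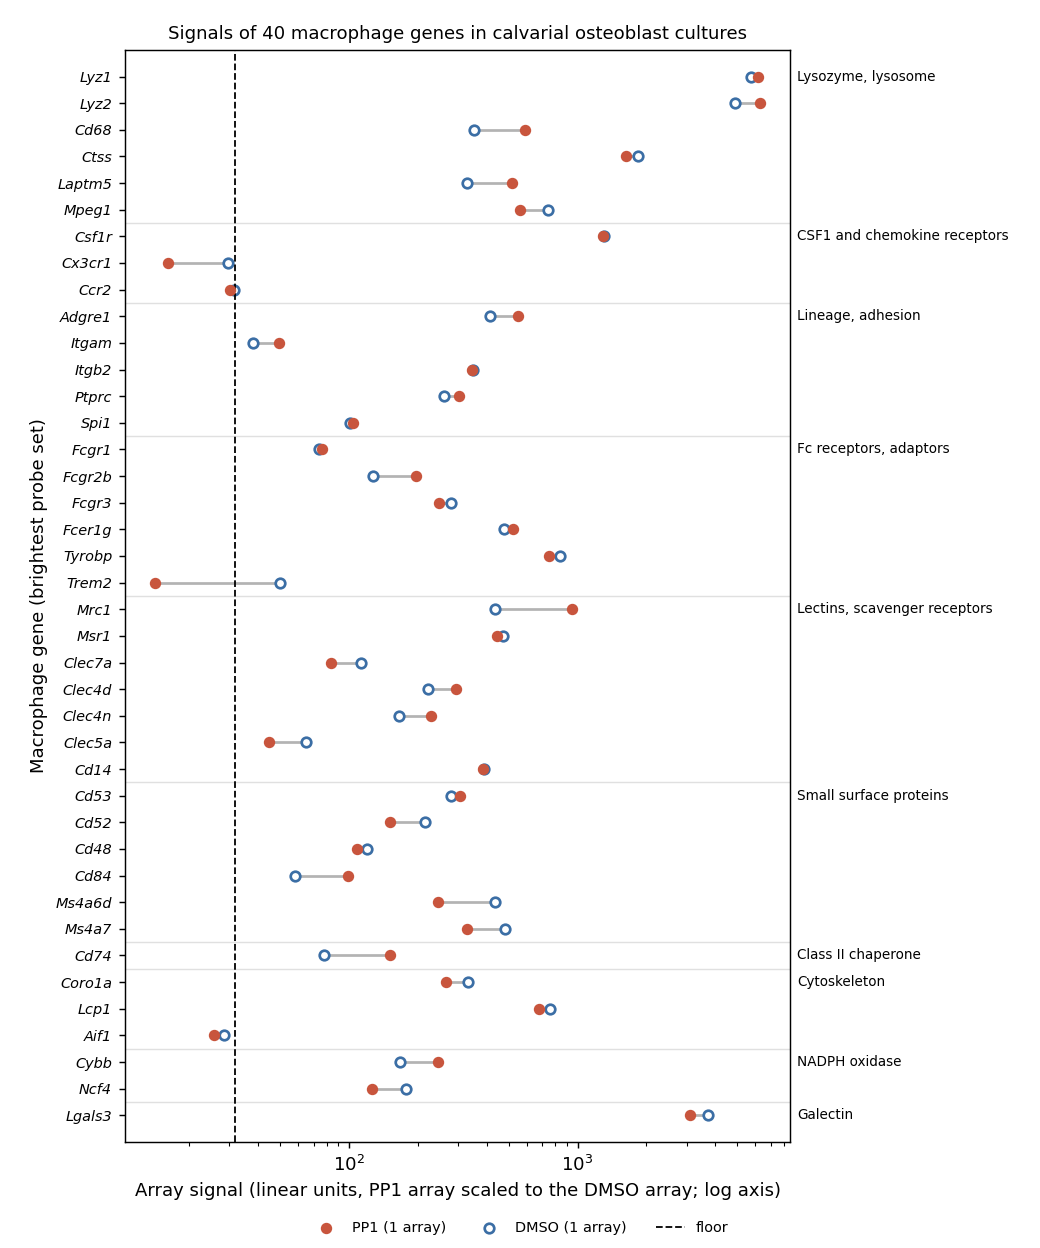
Array signal of the 40 macrophage genes by their brightest probe set, on the array of the PP1 culture (filled) and of the DMSO culture (open), on a log axis in linear signal units after scaling, grouped by role. The dashed line is the floor of 31.7; Cx3cr1, Ccr2 and Aif1 lie below it on both arrays, and Trem2 does so with PP1 only.

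Most ratios were small, and the larger ones went in both directions: 18 of the 37 genes lay above 0 and 19 below, where 51% and 49% of all measured genes did. At least 1.5-fold higher with PP1 were 6 of 37 genes (16.2%), against 10.6% of all measured genes: Mrc1, Cd74, Cd84, Cd68, Laptm5 and Fcgr2b. At least 1.5-fold lower were 2 of 37 (5.41%), against 7.37% of all measured genes: Ms4a6d and Trem2. Mrc1 alone was at least 2-fold higher (2.70%, against 2.97%), and 0 genes were at least 2-fold lower (against 1.55%). These shares lie near the background of the whole array. Within 1.5-fold were 29 genes (78.4%, against 82.0% of all measured genes), and the lower and upper quartiles were -0.26 and 0.40, against -0.25 and 0.30 over all measured genes. In place of a replicate error, probe sets for the same gene differed in log2 ratio with an SD of 0.41 over 4745 genes, and 0.51 over the 10 macrophage genes that allowed it. It covers error between probe sets and not variation between cultures. Of the 37 genes, 8 lay beyond 0.41 on the higher side and 7 on the lower side. Of all 12111 measured genes, 2138 and 1721 did.

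**Figure D2:**
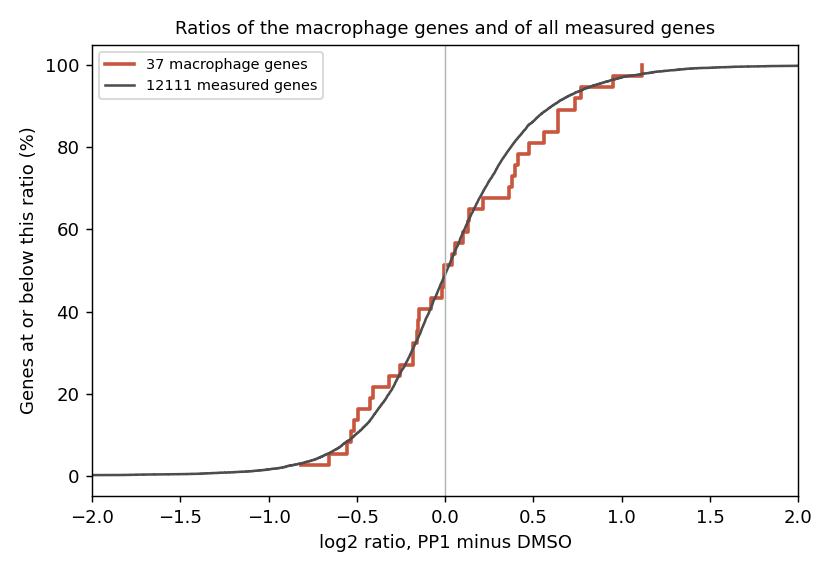
Cumulative share of genes (vertical axis, percent) at or below each log2 ratio of PP1 to DMSO (horizontal axis), for the 37 measured macrophage genes and for all 12111 measured genes. The curves cross 50% at -0.01 and 0.01 and follow each other closely; at the upper quartile the macrophage curve lies to the right, at 0.40 against 0.30.

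Among genes of degradation, the lysozymes were bright on both arrays. Lyz2 encodes the lysozyme of macrophages and granulocytes, an enzyme that cleaves bacterial cell walls. Its only probe set gave a log2 ratio of 0.36, within the spread between probe sets. Lyz1, its near-identical neighbour, is known from the Paneth cells of the gut and had 3 probe sets. A pair of them gave 6158 and 5872 with PP1, against 5742 and 5462 with DMSO, at log2 ratios of 0.10 each. Both carry the suffix x, by which the array maker marks probe sets with probes that also match other sequences. The remaining probe set of Lyz1, without that mark, gave 32.4 with PP1 and 13.8 with DMSO, at and below the floor. Which of the neighbours the bright Lyz1 probe sets report was not tested.

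The regions before the start sites of Lyz2 and Lyz1 are shown because they make visible how alike the neighbours are next to the start site. Both lie on the minus strand of chromosome 10 (RefSeq, GRCm38.p6), Lyz2 at chr10:117282273-117282522 and Lyz1 at chr10:117292869-117293118, with start sites 10596 bases apart. Of the 100 bases nearest the start site, 92 are the same at the same distance, and the last 50 are identical. Over all 250 bases 152 are the same at the same distance (60.8%), and in the farthest 150 such a match holds for 60. An inserted or lost base lowers such counts, and no alignment with gaps was made, so they do not measure likeness farther out. Capitals mark the core of the PU.1 motif, AGGAAGT, here on the opposite strand and ending 94 bases before the start site in both.
Lyz2: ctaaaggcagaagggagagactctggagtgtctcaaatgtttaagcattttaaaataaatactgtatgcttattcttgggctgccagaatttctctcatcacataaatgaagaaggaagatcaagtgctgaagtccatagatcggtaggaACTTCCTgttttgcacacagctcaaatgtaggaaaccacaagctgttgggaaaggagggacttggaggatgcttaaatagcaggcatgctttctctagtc
Lyz1: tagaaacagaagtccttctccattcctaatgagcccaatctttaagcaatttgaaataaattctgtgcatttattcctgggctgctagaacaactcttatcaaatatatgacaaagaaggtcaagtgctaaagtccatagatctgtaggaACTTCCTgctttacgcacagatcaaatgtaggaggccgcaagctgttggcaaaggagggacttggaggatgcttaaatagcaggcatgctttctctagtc

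The other degradation genes went both ways. Cd68, a glycoprotein of the lysosome membrane used as a macrophage marker, was 1.66-fold higher with PP1 by its only probe set. Laptm5, a lysosome membrane protein of blood cells, had a signal of 515 with PP1 and 330 with DMSO by its brightest probe set (1.56-fold higher). Its other 3 measured probe sets gave log2 ratios of 0.61, 0.25 and -0.80, so its direction depends on the probe set. Cathepsin S (Ctss), a protease that trims class II chaperone, had 1625 with PP1 and 1845 with DMSO. Mpeg1, a pore-forming protein of phagosomes, had 558 with PP1 and 739.8 with DMSO, a log2 ratio of -0.41. Both ratios lie within the spread between probe sets.

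Csf1r and the measured genes of lineage identity and adhesion lay within the spread between probe sets. Csf1r stood at -0.01, and its other 2 probe sets at 0.10 and -0.14. Itgb2, the beta chain shared by leukocyte integrins, stood at -0.02 (signal 346 with PP1 and 349.8 with DMSO), and Spi1 stood at 0.04 (104 with PP1 and 101 with DMSO). Ptprc (CD45), the phosphatase on all white blood cells, stood at 0.21 (304 with PP1 and 262 with DMSO). Adgre1, a surface receptor of mature mouse macrophages, stood at 0.40, just inside the spread between probe sets. Itgam (CD11b), the alpha chain of complement receptor 3, was dim, with 49.5 with PP1 and 38.1 with DMSO. The chemokine receptors were not measured by their brightest probe sets: Cx3cr1, the fractalkine receptor, had 16.2 with PP1 and 29.7 with DMSO, and Ccr2, the monocyte receptor for Ccl2, had 30.3 with PP1 and 31.4 with DMSO. A further pair of Ccr2 probe sets reached 33.6 and 33.3 with DMSO, barely above the floor, and lay under it with PP1.

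Fc receptors and their signalling adaptors differed little by their brightest probe sets, apart from Fcgr2b and Trem2. The adaptors Fcer1g and Tyrobp (DAP12), which carry activating motifs for several receptors, had 520.1 and 750.2 with PP1, against 476 and 834 with DMSO. The activating receptor Fcgr3 had 248 with PP1 and 281 with DMSO. The high-affinity receptor Fcgr1 had 76.5 with PP1 and 73.6 with DMSO (0.06), and a second probe set gave 59.6 with PP1 and was under the floor with DMSO. Fcgr2b, the inhibitory receptor, was 1.56-fold higher with PP1 by its brightest probe set (197 with PP1 and 127 with DMSO), but its other 3 measured probe sets gave -0.19, -0.46 and -0.54. Trem2, a lipid receptor that signals through Tyrobp, was near the floor throughout. Its brighter probe set gave 14.2 with PP1 and 50.1 with DMSO, which puts it at least 1.58-fold lower, and its other gave 37.7 with PP1 and 8.71 with DMSO, at least 1.19-fold higher. The probe sets of Fcgr2b and of Trem2 thus disagreed on direction.

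Lectins and scavenger receptors included the largest ratio of the 37 genes. Mrc1, the mannose receptor (CD206) of tissue macrophages, had a signal of 945 with PP1 and 437 with DMSO. That is 2.16-fold higher, a log2 ratio of 1.11 from 1 probe set. Clec4n (dectin-2), which binds fungal mannans, was higher by both probe sets, with 229 and 187 with PP1, against 165 and 83.0 with DMSO (log2 ratios 0.47 and 1.17). Clec4d, a related lectin of myeloid cells, had 294 with PP1 and 221 with DMSO (0.41). Msr1, the class A scavenger receptor, stood at -0.08, 0.26 and 0.91 by its 3 measured probe sets. Cd14, the co-receptor for lipopolysaccharide, had 388 with PP1 and 389.9 with DMSO. The beta-glucan receptor Clec7a (dectin-1) stood at -0.43, with 83.7 with PP1 and 112 with DMSO. Clec5a, which pairs with Tyrobp, stood at -0.54 from dim signals of 44.7 with PP1 and 64.7 with DMSO.

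The regions before Mrc1 and Cd68 are shown because Mrc1 had the highest ratio and Cd68 is a defining marker that was over 1.5-fold higher. Mrc1 lies on the plus strand at chr2:14229164-14229413 and Cd68 on the minus strand at chr11:69666171-69666420 (RefSeq, GRCm38.p6). Capitals mark AGGAAGT in Mrc1, on the opposite strand, and TGANTCA, the motif of AP-1 factors, in Cd68.
Mrc1: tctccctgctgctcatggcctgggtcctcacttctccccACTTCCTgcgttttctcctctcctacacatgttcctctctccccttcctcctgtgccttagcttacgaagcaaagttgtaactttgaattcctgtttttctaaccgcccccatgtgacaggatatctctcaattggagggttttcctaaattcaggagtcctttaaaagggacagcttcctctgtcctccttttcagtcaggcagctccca
Cd68: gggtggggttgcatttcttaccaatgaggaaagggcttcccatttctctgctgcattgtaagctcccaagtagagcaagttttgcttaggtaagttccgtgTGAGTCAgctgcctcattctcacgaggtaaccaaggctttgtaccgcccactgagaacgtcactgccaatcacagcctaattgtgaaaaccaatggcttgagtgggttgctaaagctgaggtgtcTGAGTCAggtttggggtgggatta
Windows of 250 bases were held for 28 of the 40 genes, 34 windows in all because some genes have several start sites. AGGAAGT was found on either strand in 6 of the 34 (17.6%), in Fcgr1, Lyz1, Lyz2, Mrc1 and Ptprc, against 7.69% of all 32851 windows. These windows belong to 5 genes, and Lyz1 and Lyz2 carry the match in the like stretch shown above, so they are not separate cases. The longer GAGGAAGT, which contains it, was found in 0 of the 34, against 2.44% of all. TGANTCA was found in 5 of the 34 (14.7%), in Cd68, Cd84, Cybb, Ms4a7 and Trem2, against 6.75% of all. A match is a description of these letters and not a binding site.

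Of the small surface proteins of white blood cells, 4 of 6 lay below 0, where 49% of all measured genes did, and the median was -0.33. Ms4a6d, a membrane-spanning protein of macrophages, had 246 with PP1 and 434 with DMSO by its brightest probe set, 1.76-fold lower, but its other measured probe set gave 283 with PP1 and 279.7 with DMSO (0.02). Its relative Ms4a7 had 327 with PP1 and 481 with DMSO (-0.56), and Cd52, a small lipid-anchored glycoprotein, had 151 with PP1 and 216 with DMSO (-0.52). Cd48, a ligand of the SLAM family, stood at -0.15 and the tetraspanin Cd53 at 0.13. Cd84, a SLAM receptor, was 1.70-fold higher with PP1, from dim signals of 98.9 with PP1 and 58.1 with DMSO.

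The remaining roles split in the same way. Cd74, the chaperone of class II molecules, had 151 with PP1 and 78.1 with DMSO, 1.94-fold higher by 1 probe set. Cybb, the catalytic subunit of the phagocyte NADPH oxidase, was higher by all 3 of its probe sets, at 0.56, 0.62 and 1.18. The signals of its brightest probe set were 246 with PP1 and 167 with DMSO. Ncf4, a cytosolic subunit of the same oxidase, stood at -0.49, with 126 with PP1 and 177 with DMSO. Among cytoskeletal proteins of leukocytes, Coro1a was lower by both measured probe sets (-0.32 and -0.27). L-plastin (Lcp1) had 677 and 371 with PP1, against 755 and 171 with DMSO, by its probe sets (-0.16 and 1.11). Aif1 (Iba1) was below the floor on both arrays, with 25.6 with PP1 and 28.4 with DMSO. Galectin-3 (Lgals3), which mesenchymal cells also make, had 3109.6 with PP1 and 3716 with DMSO (-0.26).

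Agreement between probe sets limits what single genes show. Several measured probe sets were available for 12 of the 37 measured genes, and they lay on both sides of 0 for 7 of these: Laptm5, Csf1r, Fcgr2b, Trem2, Msr1, Ms4a6d and Lcp1. They lay on 1 side for Lyz1, Fcgr1, Clec4n, Coro1a and Cybb. Those of Csf1r, from -0.14 to 0.10, lay within the spread between probe sets. The share of all genes with probe sets on both sides of 0 was not computed. Mrc1, Cd74, Cd84 and Cd68 each rested on 1 measured probe set. Over all 59 measured probe sets of the 40 genes, 13 were at least 1.5-fold higher (22.0%) and 3 at least 1.5-fold lower (5.08%). Over all 21219 measured probe sets of 1 gene, 13.9% were at least as much higher and 7.1% at least as much lower, so the array as a whole also held more on the higher side. The 4 at least 2-fold higher belonged to Mrc1, Clec4n, Lcp1 and Cybb, and for Mrc1 alone this was the brightest probe set. The share of all measured probe sets at 2-fold was not computed, so this count has no background beside it.

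**Figure D3:**
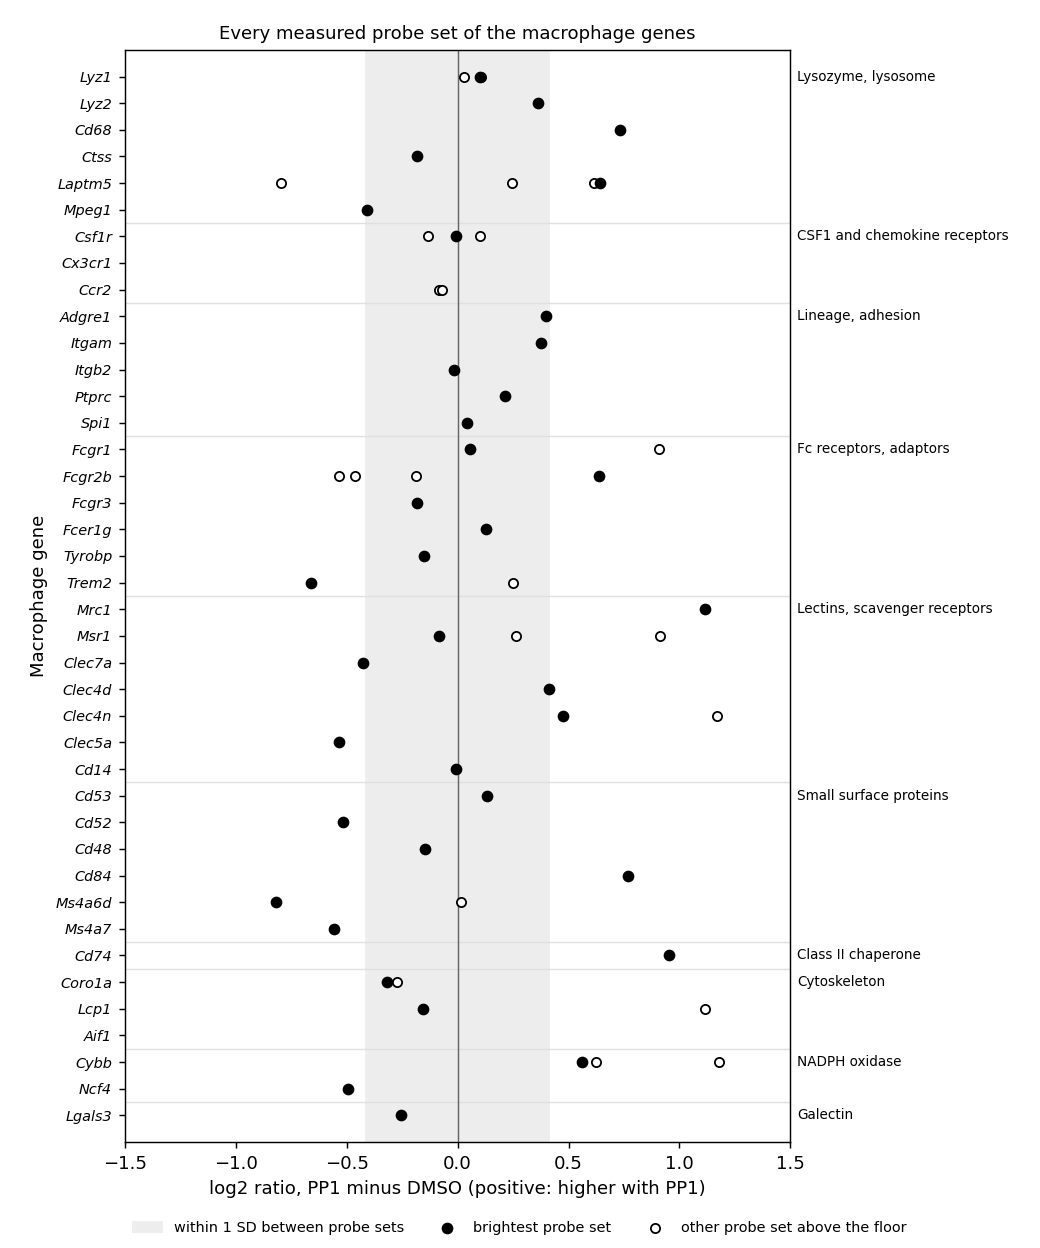
Log2 ratio of PP1 to DMSO (horizontal axis) of each measured probe set of the macrophage genes, with the brightest probe set of a gene filled and the others open. The grey band is 1 SD between probe sets of a gene (0.41); all probe sets of Clec4n and Cybb lie to its right, while those of Laptm5 and Fcgr2b lie on both sides of it.

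Activation markers that are no members of the list were mostly dim or below the floor. Of 18 genes of classical activation, the response to bacterial products and interferon, 10 were measured (55.6%, against 66.6% of all genes). Their median log2 ratio was 0.30. The nitric oxide synthase Nos2, Il1a, Il12b, Il23a, Cd86, Cxcl9, Marco and Acod1 were below the floor on both arrays, and Tnf (41.0 with PP1 and 51.7 with DMSO) and Il1b (23.6 with PP1 and 34.0 with DMSO) were close to it. The chemokine Ccl5 was 2.82-fold higher (113 with PP1 and 40.2 with DMSO), and the phagosomal metal transporter Slc11a1 was 1.55-fold higher (122 with PP1 and 78.8 with DMSO). Ccl3, a chemokine for monocytes, stood at 0.54, and the cytokine inhibitor Socs3 stood at -0.36. Of 17 genes of alternative activation, the response to interleukin-4 and related signals, 5 were measured (29.4%). Arg1, Retnla, Chil3, Cd163 and 8 others were below the floor on both arrays. The scavenger receptor Stab1 (142 with PP1 and 85.0 with DMSO) and the folate receptor Folr2 (98.8 with PP1 and 61.6 with DMSO) were 1.67-fold and 1.61-fold higher with PP1. The transcription factor Egr2 had log2 ratios of -0.94 and 0.19 by its probe sets, the first being the brighter. The lectin Clec10a was under the floor with DMSO and had 42.2 with PP1.

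Class II presentation genes were dim. The regulator Ciita was below the floor on both arrays, and 4 of 7 genes were measured (57.1%, against 66.6% of all genes). H2-DMa, which loads peptides, had 148 with PP1 and 78.7 with DMSO, and H2-Ab1, a chain of the class II molecule itself, had 75.8 with PP1 and 42.1 with DMSO. That is 1.88-fold and 1.80-fold higher, on the side of Cd74. H2-Eb1 and H2-Aa, further chains, stood at 0.15 and -0.14.

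Further macrophage genes outside the 40 were measured for 27 of 31 names, with a median of 0.25, and 18 lay above 0, where 51% of all measured genes did. At least 1.5-fold higher were 7 of the 27 (25.9%, against 10.6% of all measured genes) and at least 1.5-fold lower was 1 (3.70%, against 7.37%). The prostaglandin D synthase Hpgds had 81.5 with PP1 and was under the floor with DMSO, at least 2.57-fold higher. Apolipoprotein E (Apoe), a lipid carrier, was 1.72-fold higher (328 with PP1 and 191 with DMSO), and Csf2ra, the alpha chain of the receptor for granulocyte-macrophage colony-stimulating factor, was 1.64-fold higher (237 with PP1 and 144 with DMSO). C1qb, a chain of the first complement component that macrophages secrete, was lower by its 3 probe sets. They gave -1.16 and -0.76 with the suffix x, and -0.17 without it. The other chains C1qa and C1qc stood at -0.56 and 0.03. The 17 measured genes of myeloid signalling had a median of 0.05 and those of myeloid transcription factors a median of -0.04, with 8 measured. In the first of these lists, Nckap1l, Was and Lcp2, which relay signals to actin or from receptors, stood at 0.53, 0.45 and 0.41. The oxidase subunit Ncf1 stood at -0.52. Other probe sets went the other way, at -0.57 for Nckap1l and 0.11 for Ncf1. By their brightest probe sets, 0 genes of this list reached 1.5-fold in either direction. In the second, Runx1 stood at -0.85 by its brightest probe set and at up to 0.52 by its others, Ikzf1 stood at 0.54, Irf5 at -0.47 (0.51 by its other probe set) and Fli1 at -0.35.

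**Figure D4:**
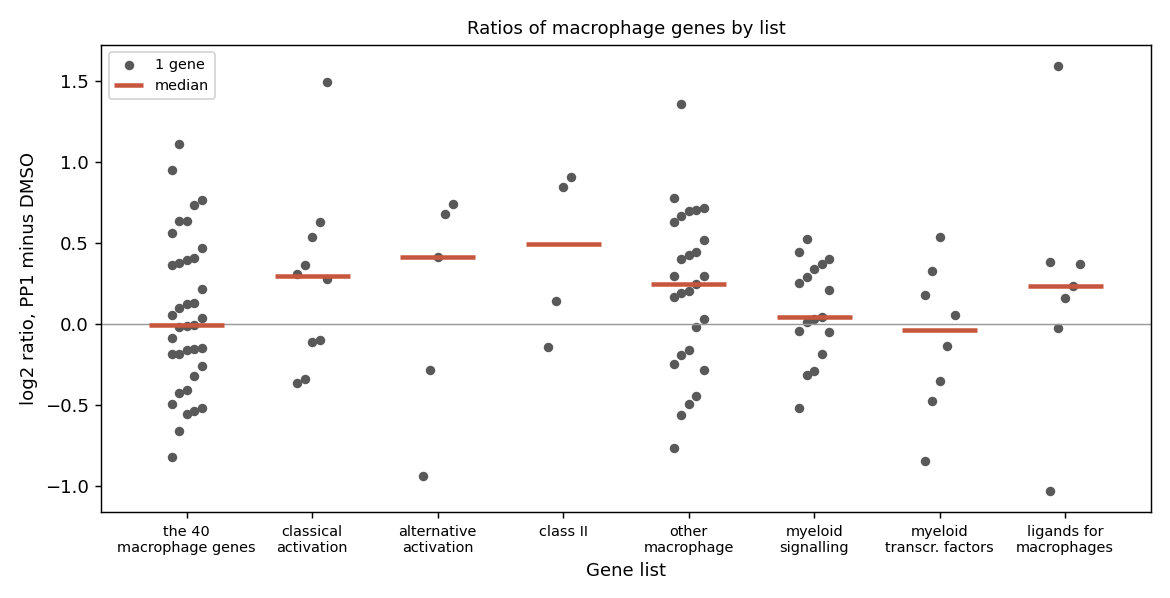
Log2 ratio of PP1 to DMSO (vertical axis) for each measured gene (points) and the median (bars) of the 40 macrophage genes and of 7 related lists. The median of the 40 genes lies at -0.01 and that of the other macrophage genes at 0.25; single genes in each list spread more widely than the medians differ.

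Of 9 ligands that act on macrophages, 7 were measured (77.8%, against 66.6% of all genes). The growth factors Csf2 and Csf3 were below the floor on both arrays. Csf1, the main growth factor of macrophages, had 2139.6 with PP1 and 2176 with DMSO by its brightest of 4 probe sets, which ran from -0.02 to 1.42. Il34, the other ligand of Csf1r, was 3.02-fold higher by 1 measured probe set (133 with PP1 and 44.2 with DMSO, the latter near the floor). The monocyte chemokines Ccl2 (1193 with PP1 and 912 with DMSO) and Ccl7 (555 with PP1 and 429 with DMSO) stood at 0.39 and 0.37. Cx3cl1, the ligand of Cx3cr1, had 124 and 70.2 with PP1, against 254 and 43.9 with DMSO, by its probe sets (-1.03 and 0.68).

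Markers of mast cells, T, NK and B cells and neutrophils were mostly below the floor, unlike the macrophage genes. Over all genes, 66.6% were measured. Measured were 0 of 7 mast cell genes, 1 of 10 T and NK cell genes (Cd8a, with 48.4 with PP1 and 44.8 with DMSO), 1 of 5 B cell genes (Blnk) and 2 of 8 neutrophil genes (Elane and Mmp8, both under the floor with DMSO). Dendritic cell genes were measured for 4 of 6 (66.7%, the share of all genes), all dim. Itgax (CD11c) had 71.0 with PP1 and 92.2 with DMSO. Of 5 erythroid and megakaryocyte genes, 3 were measured (60%). Platelet factor 4 (Pf4), a megakaryocyte gene that some mouse macrophages also express, had 429.7 with PP1 and 283 with DMSO. The platelet genes Itga2b (84.3 with PP1 and 79.5 with DMSO) and Gp1bb (80.2 with PP1 and 109.6 with DMSO) were above the floor on both arrays as well. Of 11 osteoclast genes, 7 were measured (63.6%, near the share of all genes), with a median of -0.14. Cathepsin K (Ctsk), which mesenchymal cells make as well, had 1117 with PP1 and 1233 with DMSO, and the proton pump subunit Atp6v0d2 had 176 with PP1 and 187 with DMSO. Larger ratios went both ways: the phosphatase Acp5 (TRAP) had 166 with PP1 and 109 with DMSO (1.53-fold higher), and the gelatinase Mmp9 had 54.5 with PP1 and 95.5 with DMSO (1.75-fold lower). Nfatc1, the factor that drives osteoclast formation, had 117 with PP1 and 169 with DMSO and was below 0 by all 4 probe sets, from -0.99 to -0.22. Tnfrsf11a (RANK), the receptor for the osteoclast ligand, was near the floor. Calcr, Dcstamp, Ocstamp and Itgb3, which mark fused osteoclasts, were below the floor on both arrays. The summed signal of the osteoclast list was 1732 with PP1 and 1908 with DMSO, and that of the 7 fibroblast genes, all measured, was 24188 with PP1 and 19154 with DMSO. Of the 7, 5 lay above 0, such as Pdgfra (1272 with PP1 and 678 with DMSO) and Dcn (4647 with PP1 and 2939 with DMSO). Pdgfrb was 2.08-fold lower (1616 with PP1 and 3355 with DMSO), and Thy1 stood at -0.30. The endothelial genes summed to 179.6 with PP1 and 120.1 with DMSO, and 3 of 7 were measured (42.9%). These were near the floor: Tek (55.2 with PP1 and 32.3 with DMSO), Cdh5 (41.6 and 23.3) and Kdr (34.3 and 34.6). The sum also takes in signals below the floor, so background limits it. The part of these cells in any ratio above was not tested.

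**Figure D5:**
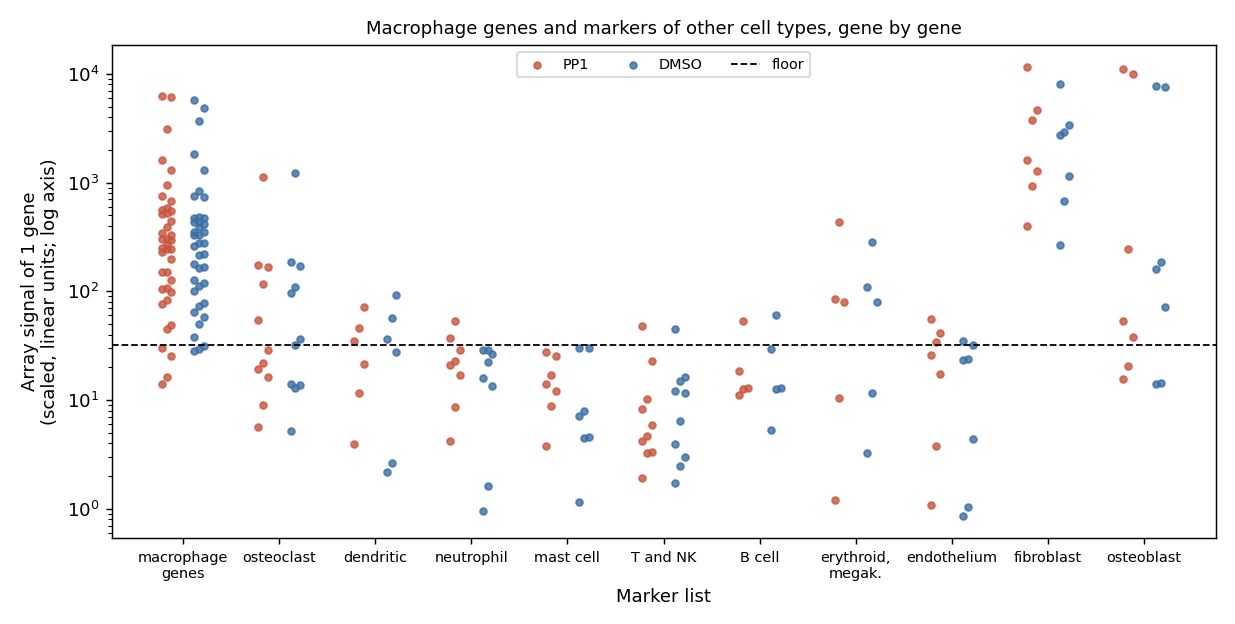
Scaled array signal (vertical log axis, linear units) of each gene of the 40 macrophage genes and of marker lists for other cell types, with PP1 on the left and DMSO on the right of each pair. All fibroblast genes and most macrophage and osteoblast genes lie above the dashed floor of 31.7, while mast cell genes and most T, NK and B cell genes lie below it.

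Every direction above is relative to the bulk of genes, because the arrays differed in overall signal. As deposited, the PP1 array was dimmer, with a trimmed mean of 94.1 against 158.1 on the DMSO array. Without scaling, the median log2 ratio was -0.70 both for the macrophage genes (-0.701) and for all measured genes (-0.705), and 15 of the 18 macrophage genes above 0 stood below it, Lyz2 (-0.38), Adgre1 (-0.35), Cd68, Laptm5, Fcgr2b, Cybb, Clec4n and Clec4d among them. Of the genes outside the 40, Ccl3, Slc11a1, Stab1, Folr2, Csf2ra, Ccl2, Ccl7, Acp5, Pf4 and Col1a1 did so too. Scaled to the bacterial hybridization controls, 16 of the 18 were below 0, and Mrc1 and Cd74 stayed above it. Control probe sets at the 3' and 5' ends, whose ratio moves with RNA quality, differed on the log2 scale by 0.19 with PP1 and 0.70 with DMSO for Gapdh, and 0.69 with PP1 and 0.55 with DMSO for Actb. The part of either difference in the ratios was not tested.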

How the data were processed

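The files hold 1 array per condition. The deposited values are signal intensities on a linear scale, 1 per probe set, made with MAS5 per the submitters' processing notes, with the version and scaling target not given in the sources used here. Of 45037 non-control probe sets, 34945 have 1 gene in the platform annotation, and symbols were updated by gene identifier through the RefSeq table of GRCm38.p6 (34741 matched). The PP1 array was scaled to the DMSO array (factor 1.68), signals under the median of both arrays (31.7) were set to it, and ratios were formed on the log2 scale. The probe set shown for a gene is the one whose log2 signal, averaged over both arrays, was highest. The rule for names took all 40 genes and, from each other list, up to 4 measured genes with the largest size of ratio; not all of these are given with values in the text, and further names were picked with values in view. The members and lists were chosen with earlier results of these data known. With 1 array per condition, no p-value is given, and the number of arrays limits the precision. Alternatives changed the scaling, the floor, the choice of probe set and the fold threshold. The steps were tested on simulated data. Upstream sequences are RefSeq's (GRCm38.p6). The work used Python 3.11.15, pandas 2.3.3, numpy 2.4.6 and statsmodels 0.14.6.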

Additional observations from a re-analysis of the deposited data

How the results depend on the processing

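No paired analysis was possible because each condition is 1 array and the result comes from no test. The median ratio of the macrophage genes minus that of all measured genes ranged over the 8 alternative settings from -0.11 (shared probe sets, with the suffix s, x or a, left out) to 0.03 (floor at the 75th percentile). Without scaling the median was -0.70, with 0 genes at least 1.5-fold higher, 24 at least 1.5-fold lower, 0 at least 2-fold higher and 10 at least 2-fold lower. Scaled to the bacterial hybridization controls it was -0.79, with 0 at least 1.5-fold higher, 25 lower, 0 at least 2-fold higher and 12 lower. With equal medians the counts were 3 at least 1.5-fold higher, 7 lower and 0 at least 2-fold higher. That setting moved the median of all measured genes to -0.16. Relative to this shift, 6 genes were at least 1.5-fold higher, 1 was lower and 1 was at least 2-fold higher. The split among 1.5-fold calls was 75% higher in the setting reported, 30% with equal medians, 62.5% with loess, 60.0% without shared probe sets, 100% with the median over probe sets and 0% without scaling and with the hybridization controls. Measured against the shift of all genes, 6 genes were higher and 2 lower at 1.5-fold under both of these. Without a floor 1 gene was at least 2-fold lower. A floor at the 75th percentile left 3 higher and 1 lower at 1.5-fold, the median over probe sets 0 lower, leaving out shared probe sets 3 higher, and a threshold of 3-fold 0 in each direction. Without scaling, 36 of 90 named genes with a value changed sign, all of them above 0 in the setting reported, and with the hybridization controls 39 of 88 did. These include 15 and 16 of the 18 macrophage genes above 0, Lyz2 (-0.38 and -0.48) and Adgre1 (-0.35 and -0.44) among them. Of those that had been at least 1.5-fold different, the ones that changed sign without scaling were Cd68 (-0.015), Laptm5 (-0.11), Fcgr2b (-0.11), Slc11a1 (-0.12), Stab1 (-0.0056), Folr2 (-0.066), Csf2ra (-0.033), Acp5 (-0.13), Pf4 (-0.15) and Dcn (-0.088). With the hybridization controls these were Cd68 (-0.11), Laptm5 (-0.20), Fcgr2b (-0.20), Cd84 (-0.074), Slc11a1 (-0.21), Stab1 (-0.10), Folr2 (-0.16), Apoe (-0.061), Csf2ra (-0.13), Acp5 (-0.23), Pf4 (-0.24), Dcn (-0.18) and Tek (-0.067). With the median over probe sets, Fcgr2b (-0.33) and Runx1 (0.15) changed sign, and of the smaller ratios Lcp1, Msr1, Nckap1l and Irf5 did. With equal medians 8 of 91 and with loess 9 of 91 changed sign. The first pair of settings moved the median of all genes by as much (to -0.70 and -0.79). Equal medians moved the median of all genes to -0.16, and the 8 named genes that changed sign there had all been above 0. For the other settings the cause was not tested. For genes near the floor, such as Trem2, Itgam and Clec5a, signal over background limits the ratio.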
